A study of Mus musculus with 8 samples.

Results

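A set of 8 genes that encode regulators of heart transcription was followed through the first day of mesoderm formation in the mouse: Hand1, Hand2, Mef2c, Smarcd3, Isl1, Nkx2-5, Myocd and Srf. They were chosen by symbol: every probe set whose platform annotation was exactly 1 of these symbols was taken, which gave 15 probe sets for 8 genes, of 28898 probe sets for 17097 genes in the table. All embryos, those of the GFP- cells included, carried Mesp1-rtTA and Teto-H2B-GFP, a reverse tetracycline transactivator driven by Mesp1 and a histone H2B-GFP that answers to it. Living cells were sorted by GFP, 50 per array, and their RNA was amplified and hybridised to an Affymetrix mouse array. The 4 groups were GFP+ cells at embryonic day (E) 7.5, GFP- cells at E7.5, GFP+ cells at E6.5 and GFP- cells at E6.5, each with 2 arrays that the labels number 1 and 2 as biological replicates. H2B-GFP is a stable protein, so GFP need not follow Mesp1 transcription at the time of sorting, and how many embryos were pooled for an array was not given in the sources used here.

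Heart muscle arises from mesoderm that leaves the primitive streak and passes through a Mesp1-positive state. HAND1 and HAND2 are basic helix-loop-helix factors of the ventricles and outflow tract, and Hand1 is also active in extraembryonic mesoderm and trophoblast. ISL1 is a LIM homeodomain factor of the second heart field, and NKX2-5 is the homeodomain factor of early heart progenitors. MEF2C and SRF are MADS-box factors that bind muscle genes, SRF with myocardin (Myocd) as a coactivator restricted to cardiac and smooth muscle. SMARCD3, also called BAF60C, is a subunit that directs the BAF chromatin remodelling complex to heart genes.

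Mesp1 itself was read first as a check of the sort. Its log2 level was 8.75 and 8.65 in GFP+ cells against 7.76 and 8.06 in GFP- cells at E7.5, and 9.75 and 10.03 in GFP+ cells against 5.64 and 6.26 in GFP- cells at E6.5. Every GFP+ array thus lay above every GFP- array of its stage, by a wide gap at E6.5 and by under 1 log2 unit within each replicate number at E7.5. Across all probe sets, array medians were 4.2 to 4.23 for replicate 1 and 4.54 to 4.59 for replicate 2. They were higher in replicate 2 whatever the group, and changes are given within each replicate number where a result rests on them.

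The first question was which of these regulators were measurable at all. The values used here came without a background per probe set, so background was taken on each array as the 95th percentile of 44 probe sets of olfactory receptor genes, which lay between 3.79 and 4.2 on the log2 scale. On each array 62.1 to 67.1% of all named probe sets lay above that level. Of the 15 probe sets, 8 lay above it on all 8 arrays: both of Hand1, both of Srf, the Smarcd3 probe set, and 1 each of Hand2, Isl1 and Mef2c. Another 3 lay below it on all 8 arrays, namely 1451506_PM_at and 1451507_PM_at of Mef2c and 1425808_PM_a_at of Myocd. The remaining 4 crossed it, 1 each of Hand2, Isl1, Nkx2-5 and Myocd. Where several probe sets of a gene passed a filter on low values, that with the highest mean stood for the gene in the fits. The filter was passed by 12 of the 15, where 18584 of all 28898 named probe sets passed it. Each of the 8 genes had at least 1 of these 12. Nkx2-5, Mef2c and Myocd exceeded the filter value on 4, 4 and 3 arrays, all of replicate 2. That value, 4.38, lies between the array medians of the 2 replicate numbers. Levels of different probe sets are not on a common scale and are not ranked against each other here.

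**Figure D1:**
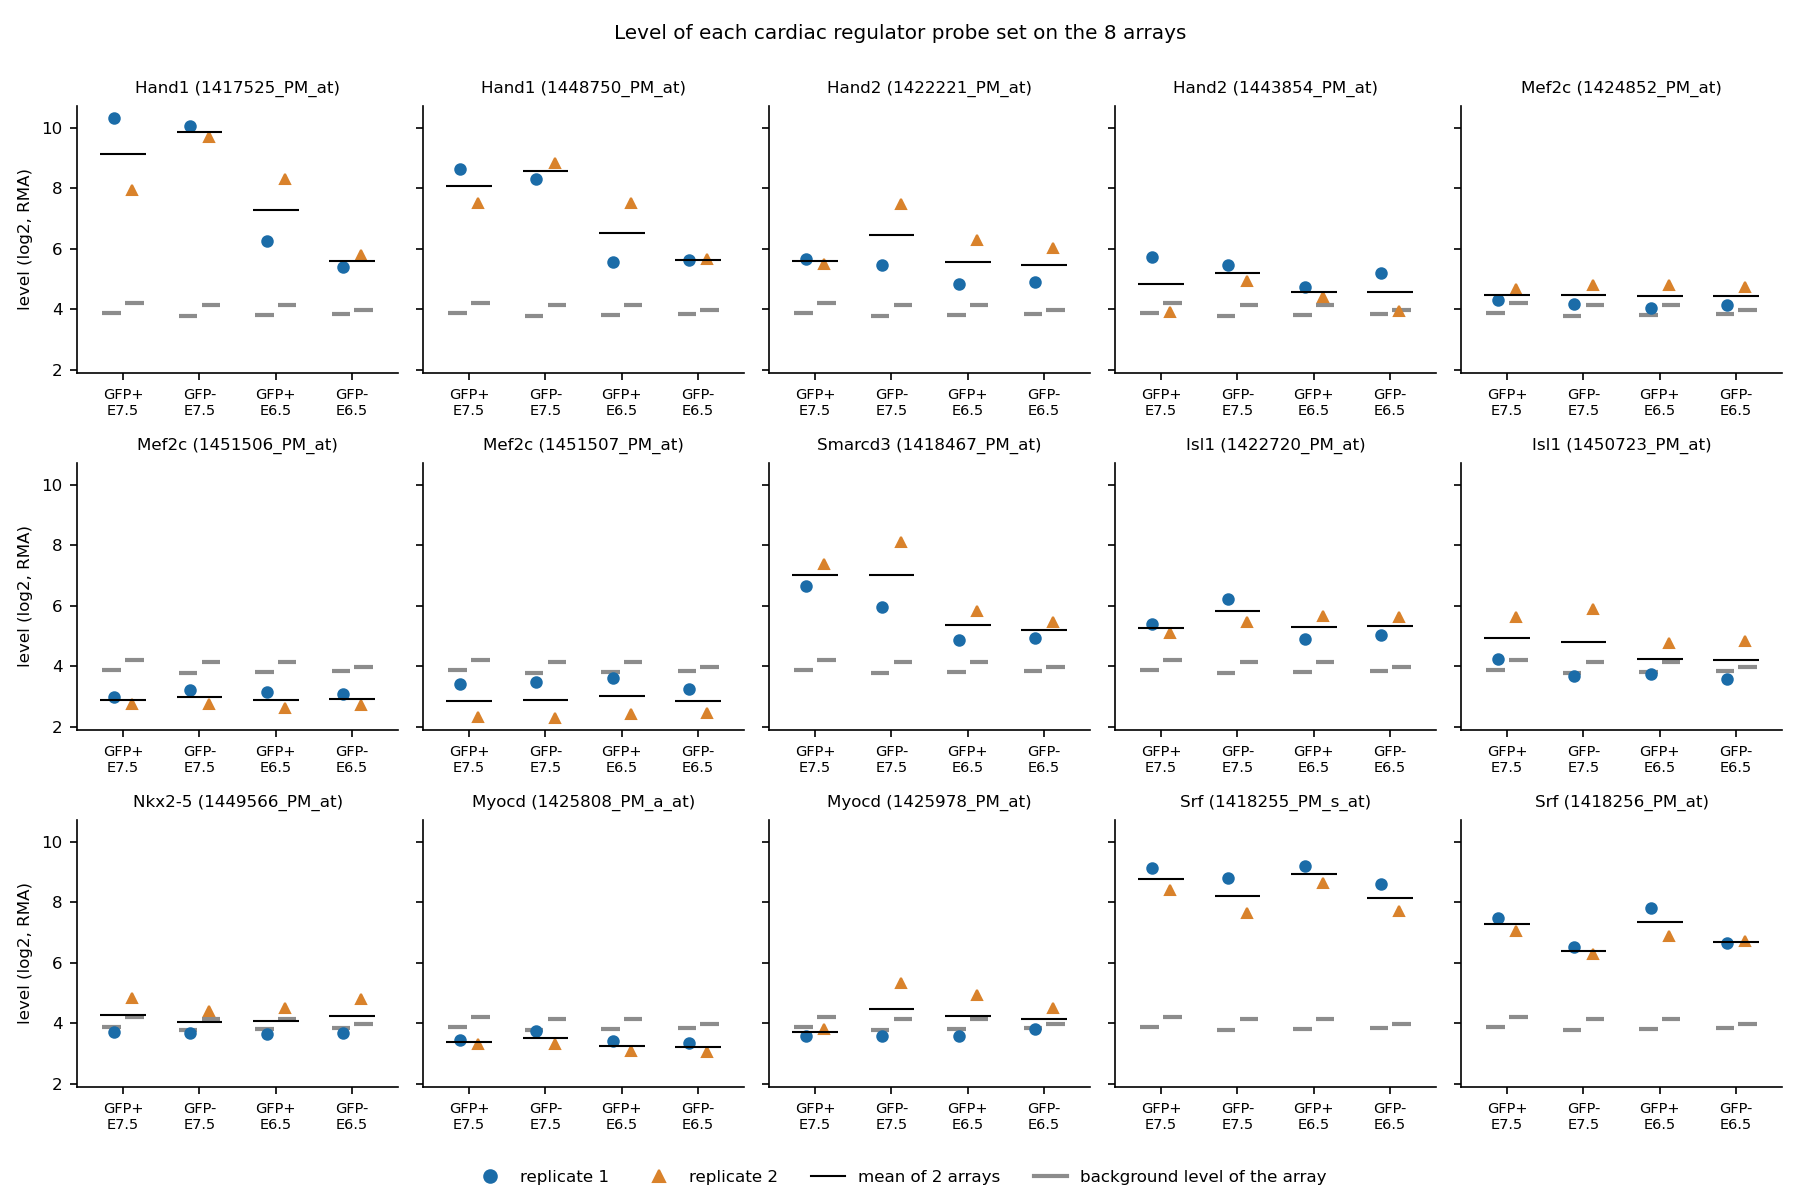
Log2 level of each regulator's probe sets (vertical axis) on the 8 arrays, by fraction and stage along the horizontal axis, with 1 marker per array, the group mean as a thin line and the olfactory receptor background of each array as a grey bar. Hand1 runs from 5.40 to 10.33 and Smarcd3 from 4.88 to 8.09, whereas Nkx2-5 lies below background on every replicate 1 array and above it on every replicate 2 array.

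None of the 8 regulators passed limma's test at a Benjamini-Hochberg adjusted p under 0.05 in any of the 5 comparisons made. Between GFP+ and GFP- cells at E6.5 it called 0 of 8 regulators against 0.0769% of the 11706 genes tested, and at E7.5 it called 0 of 8 against 0.0%. Between E7.5 and E6.5 it called 0 of 8 in GFP+ cells, against 0.0256% of all genes, and 0 of 8 in GFP- cells, against 0.094%. For the interaction, the fraction difference at E7.5 minus that at E6.5, it called 0 of 8 against 0.0%. At an unadjusted p under 0.05 Hand1 and Smarcd3 made 2 of 8 between stages in GFP- cells, against 6.48% of all genes. In the same fit, which has no term for the replicate number, the other comparisons had 0 of 8 at that level, where all genes had 5.73% between fractions at E6.5, 2.41% at E7.5, 3.85% between stages in GFP+ cells and 2.71% for the interaction. The background shares are so low that an absence of calls among 8 genes says little about these genes. With 2 arrays a group, an effect had to be large and steady to pass. The shares of all genes in this paragraph are also those to set beside the counts of gene lists below.

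The median change of the 8 regulators was 0.10 on the log2 scale between fractions at E6.5, where the median of all genes was 0.01, and -0.30 at E7.5, where it was -0.01. Between stages it was 0.04 in GFP+ cells and 0.41 in GFP- cells, beside -0.03 and -0.01 for all genes. The comparisons share arrays, so their values for a gene are given side by side and not as separate evidence. Because each array is a sorted pool, fewer cells expressing a gene and less of its RNA per cell cannot be told apart.

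Hand1 had the widest span of the 8. Its probe set 1417525_PM_at read 10.33 and 7.92 in GFP+ cells at E7.5, 10.05 and 9.68 in GFP- cells at E7.5, 6.26 and 8.32 in GFP+ cells at E6.5, and 5.40 and 5.79 in GFP- cells at E6.5. Every E7.5 GFP- value lay far above every E6.5 GFP- value, while the GFP+ arrays of both stages overlapped and spread widely. Group means were 9.12 ± 1.70, 9.86 ± 0.26, 7.29 ± 1.45 and 5.59 ± 0.27 in the same order (SD, n = 2 arrays).

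In GFP- cells Hand1 was 4.27 log2 units higher at E7.5 than at E6.5 (SE 0.88, 95% interval 2.19 to 6.35), a ratio of 19.3-fold, with differences of 4.65 and 3.89 within replicates 1 and 2. Its unadjusted limma p was 0.001745 and its adjusted p 0.2082. The adjusted p was 0.0617 when only the 4 GFP- arrays were fitted, so it stayed above the threshold there too. The second Hand1 probe set, 1448750_PM_at, read 8.29 and 8.83 in GFP- cells at E7.5 against 5.61 and 5.66 at E6.5. That was 2.92 higher (SE 0.66), or 7.58-fold, with a limma adjusted p of 0.2846.

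In GFP+ cells the stage difference of Hand1 depended on the replicate number. It was 1.84 (SE 0.88, interval -0.24 to 3.91, limma adjusted p 1.0) over both, made of 4.07 in replicate 1 and -0.39 in replicate 2. Without the E7.5 GFP+ array of replicate 1 it was 0.63, and without that of replicate 2 it was 3.04. The second probe set gave the same split, 3.07 in replicate 1 and 0.01 in replicate 2, so both probe sets showed this spread between arrays.

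The fraction difference of Hand1 at E6.5 was 1.69 (SE 0.88, interval -0.38 to 3.77, limma adjusted p 0.9999), 0.86 in replicate 1 and 2.53 in replicate 2. It was 0.67 without the E6.5 GFP+ array of replicate 2, and the second probe set gave -0.06 and 1.83 within the numbers. At E7.5 the difference was -0.74, 0.28 in replicate 1 and -1.76 in replicate 2. The interaction was -2.43 (SE 1.25, interval -5.37 to 0.50), and the test did not separate the fraction difference of one stage from that of the other.

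Hand1 is also a gene of extraembryonic mesoderm, so a list of markers of that tissue was read on the same arrays. Of 12 markers 8 were tested, and limma called 0 of 8 in every comparison. At an unadjusted limma p under 0.05 there were 4 of 8 between E7.5 and E6.5 in GFP- cells, against 6.48% of all genes. There all 8 changes were positive, with a median of 2.17, and in GFP+ cells 5 of 8 were, with a median of 0.60. The mean log2 level of the 8 markers was 6.86 and 5.80 in GFP+ cells and 6.38 and 7.22 in GFP- cells at E7.5, and 4.97 and 5.61 in GFP+ cells and 4.89 and 5.18 in GFP- cells at E6.5. At E7.5 it was thus high on the GFP+ array of replicate 1 and lower on that of replicate 2, as Hand1 was. Between 7 and 8 of the 8 markers lay above background on each array.

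Foxf1, a forkhead factor of extraembryonic and lateral plate mesoderm, was the marker closest to Hand1. It read 8.50 and 8.77 in GFP+ cells and 8.54 and 9.53 in GFP- cells at E7.5, and 4.03 and 7.72 in GFP+ cells and 3.88 and 4.95 in GFP- cells at E6.5. In GFP- cells it was 4.62 higher at E7.5 (SE 1.08, limma adjusted p 0.287). Its E6.5 GFP+ array of replicate 2 stood above its partner, as that of Hand1 did. Its E7.5 GFP+ arrays (8.50 and 8.77) did not have the lower replicate 2 value of Hand1 (10.33 and 7.92). Tbx3, a T-box factor, was 2.45 higher at E7.5 in GFP- cells, while Vcam1 (0.04) and Hoxa13 (0.07) had the smallest differences of the list.

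Blood and endothelial progenitor markers (9 of 14 tested) had a mean level of 5.23 and 4.72 in GFP+ cells and 5.96 and 5.71 in GFP- cells at E7.5, and 4.29 and 4.82 in GFP+ cells and 4.21 and 4.78 in GFP- cells at E6.5. Extraembryonic ectoderm and trophoblast markers (11 of 16 tested) had 5.0 and 5.12 in GFP+ cells and 6.39 and 5.49 in GFP- cells at E7.5, and 4.52 and 4.79 in GFP+ cells and 5.32 and 5.97 in GFP- cells at E6.5. Between fractions, 2 of 11 trophoblast marker changes were positive at each stage. Limma called 0 genes of either list in any comparison. At an unadjusted limma p under 0.05 there were 5 of 9 blood and endothelial markers, and 1 of 11 trophoblast markers, between stages in GFP- cells. The share of all genes there was 6.48%. The part of any of these tissues in the Hand1 values was not tested.

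**Figure D2:**
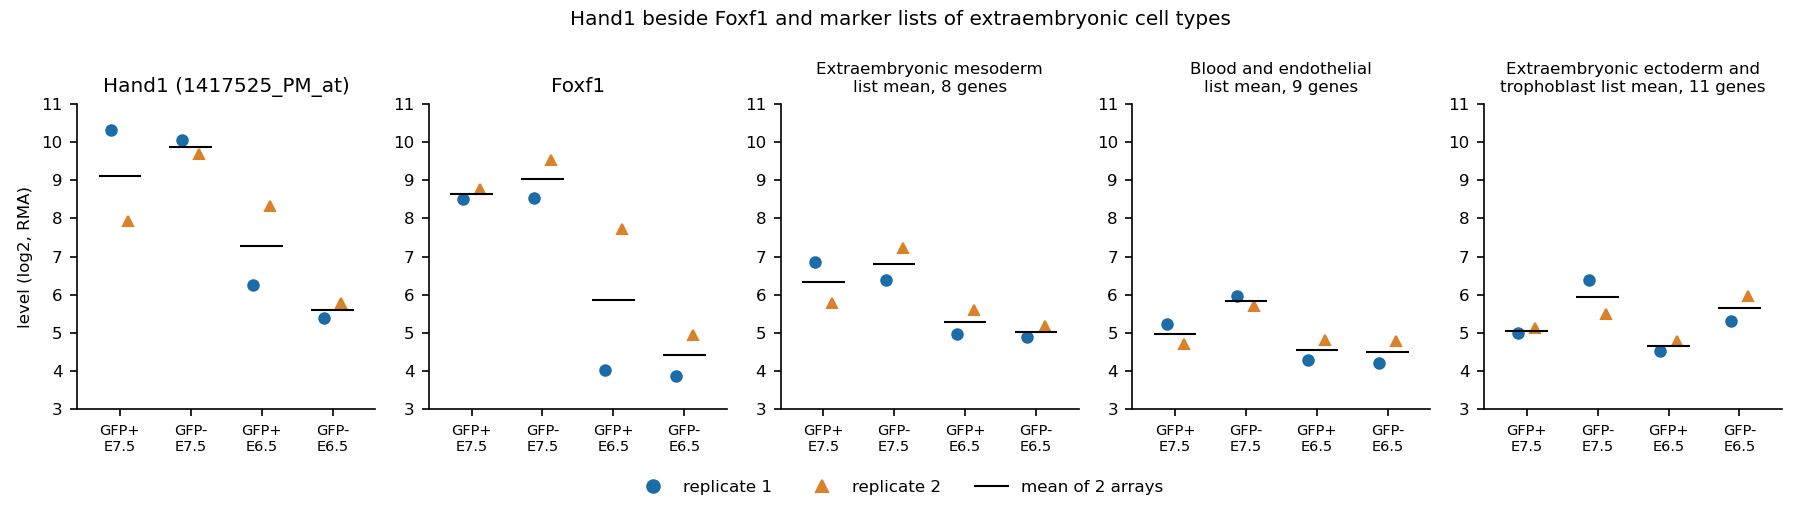
Log2 level of Hand1 on the 8 arrays, beside Foxf1 and the mean levels of the extraembryonic mesoderm, blood and endothelial, and trophoblast marker lists, by fraction and stage, with 1 marker per array and the mean as a line. Apart from the trophoblast list, the group mean of each is lowest in GFP- cells at E6.5. The E7.5 GFP+ arrays are lower in replicate 2 for Hand1 (10.33 and 7.92) and the extraembryonic mesoderm mean (6.86 and 5.80), but not for Foxf1 (8.50 and 8.77).

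Hand2 varied less. Its probe set 1422221_PM_at read 5.67 and 5.50 in GFP+ cells and 5.46 and 7.47 in GFP- cells at E7.5, and 4.84 and 6.29 in GFP+ cells and 4.88 and 6.03 in GFP- cells at E6.5. The GFP- array of replicate 2 at E7.5 stood above the others, and the groups overlapped in every comparison. The stage difference in GFP- cells was 1.01 (SE 0.77, interval -0.79 to 2.81), made of 0.58 and 1.43, and that in GFP+ cells was 0.02 (SE 0.77), made of 0.83 and -0.79. The fraction difference was 0.11 at E6.5 and -0.88 at E7.5 (0.21 in replicate 1 and -1.97 in replicate 2). The second probe set, 1443854_PM_at, was above background on 6 of 8 arrays, and its changes ran from -0.38 to 0.63 over these 4 comparisons.

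HAND proteins bind DNA as dimers with E proteins and TWIST, and ID proteins, which lack the basic region, sequester the E proteins. All 9 listed partners and inhibitors were tested, and limma called 0 of 9 in each comparison. At an unadjusted p under 0.05 there were 2 of 9 between fractions at each stage, 2 of 9 between stages in GFP+ cells and 1 of 9 in GFP- cells. Twist1 was 2.17 higher at E7.5 in GFP- cells and 2.21 higher in GFP+ cells, with both replicate numbers positive. Between fractions at E7.5, Id2 (-2.25) and Id1 (-1.22) had the lowest differences of the list, and at E6.5 Id2 was at -1.39 and Id1 at 1.32. Of the E protein genes, Tcf3 differed by -0.10 and Tcf12 by 0.22 between stages in GFP- cells. Between fractions at E6.5 Tcf3 was at 0.02 and Tcf12 at 0.72.

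Smarcd3 was higher at E7.5 than at E6.5 on every array, by an amount that did not pass the test. Its probe set 1418467_PM_at read 6.65 and 7.36 in GFP+ cells and 5.95 and 8.09 in GFP- cells at E7.5, against 4.88 and 5.84 in GFP+ cells and 4.94 and 5.46 in GFP- cells at E6.5. All 4 E7.5 arrays lay above all 4 E6.5 arrays. In GFP+ cells it was 1.65 higher at E7.5 (SE 0.71, interval -0.02 to 3.31), or 3.13-fold, with 1.77 and 1.52 within the numbers and a limma adjusted p of 1.0. In GFP- cells it was 1.82 higher (SE 0.71, interval 0.15 to 3.49), or 3.53-fold, with 1.00 and 2.63 within the numbers. There its unadjusted limma p was 0.03647 and its adjusted p 0.7114. The GFP- difference was 0.75 without the E7.5 array of replicate 2 and 2.89 without that of replicate 1.

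Smarcd3 was alone among the 8 in being over 1 log2 unit higher at E7.5 in both replicate numbers and both fractions, which 0.598% of all genes were. In GFP- cells by themselves Hand1 and Smarcd3 met that mark (2 of 8, against 1.9% of all genes), and in GFP+ cells Smarcd3 did (1 of 8, against 1.58%). This mark was chosen after the values had been seen, and these shares are a description. By fraction the Smarcd3 estimates were near 0. GFP+ minus GFP- was 0.16 (SE 0.71, interval -1.51 to 1.83) at E6.5 and -0.01 (SE 0.71, interval -1.68 to 1.65) at E7.5, where the numbers gave 0.70 and -0.73. These intervals still allow a difference of more than 1 log2 unit either way. The interaction was -0.17 (SE 1.00).

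Of the other BAF subunits on the list, 20 of 24 were tested. Limma called 0 of 20 in every comparison, with 1 of 20 at an unadjusted p under 0.05 between stages in GFP+ cells and 0 of 20 in the other 3. Their median stage difference was -0.19 in GFP+ cells and 0.05 in GFP- cells. In GFP+ cells they ran from Bcl7b at -1.30 to Brd9 at 0.28, and in GFP- cells from Smarcc2, a core scaffold subunit, at -0.76 to Brd9, a bromodomain subunit, at 0.96. The paralogues that can take the place of SMARCD3 in the complex were near 0: Smarcd1 differed by -0.18 in GFP+ cells and by -0.16 in GFP- cells, and Smarcd2 by -0.27 and -0.09. All 20 estimates therefore lay below that of Smarcd3 in both fractions. No test of the difference between Smarcd3 and these genes was made.

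**Figure D3:**
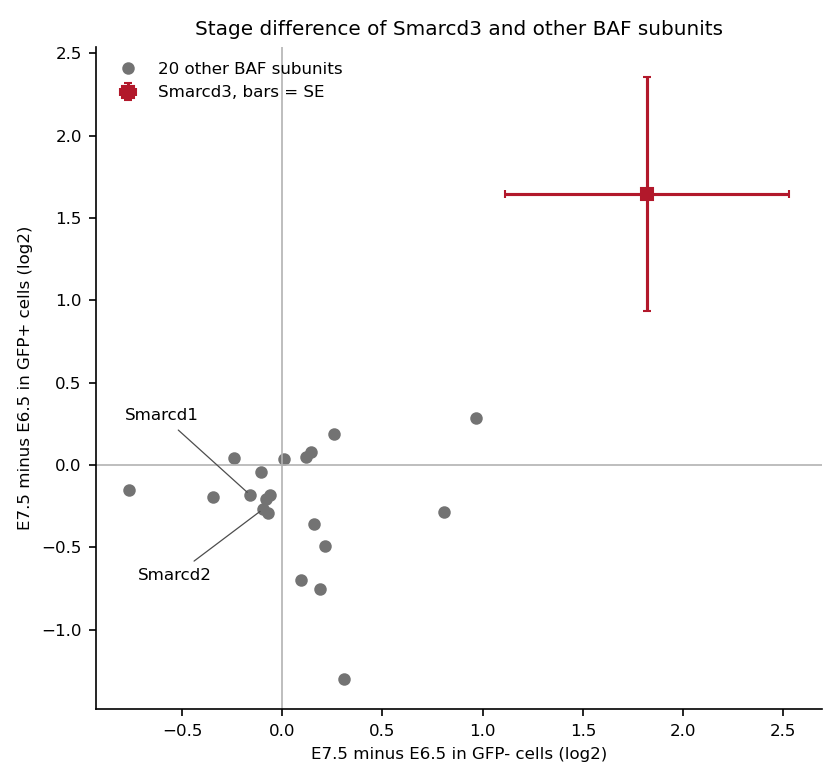
Stage difference (E7.5 minus E6.5, log2) in GFP+ cells on the vertical axis against that in GFP- cells on the horizontal axis, for Smarcd3 (square, bars = SE) and the 20 other BAF subunits tested (grey points). Smarcd3 lies at 1.65 and 1.82, and the other subunits lie between -1.30 and 0.28 in GFP+ cells and between -0.76 and 0.96 in GFP- cells.

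The Srf estimates were larger between fractions than between stages, and none passed the test. Its probe set 1418255_PM_s_at, of a type that can match more than a single transcript, read 9.14 and 8.39 in GFP+ cells against 8.79 and 7.64 in GFP- cells at E7.5, and 9.20 and 8.63 in GFP+ cells against 8.60 and 7.69 in GFP- cells at E6.5. Replicate 1 read higher than replicate 2 in each group, and within a replicate number both GFP+ values lay above both GFP- values. GFP+ minus GFP- was 0.77 (SE 0.53, interval -0.47 to 2.01) at E6.5, or 1.7-fold, with 0.59 and 0.94 within the numbers, and 0.55 (SE 0.53, interval -0.69 to 1.79) at E7.5, with 0.35 and 0.75. The limma adjusted p was 0.9999 at E6.5 and 1.0 at E7.5. These SEs and intervals come from the fit without a block, so they include the offset between the replicate numbers.

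The second Srf probe set, 1418256_PM_at, read 7.47 and 7.05 in GFP+ cells against 6.5 and 6.30 in GFP- cells at E7.5, and 7.81 and 6.89 in GFP+ cells against 6.66 and 6.73 in GFP- cells at E6.5. On this probe set all 4 GFP+ arrays lay above all 4 GFP- arrays. Its fraction difference was 0.66 (SE 0.39) at E6.5 and 0.86 (SE 0.39) at E7.5, positive in all 4 pairs. Srf was 1 of 8 regulators with GFP+ above GFP- in both numbers at both stages, a rule chosen after the values had been seen that 9.1% of all genes met. Between stages Srf differed by -0.15 in GFP+ cells and 0.07 in GFP- cells (SE 0.53 each), and the interaction was -0.21 (SE 0.75).

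**Figure D4:**
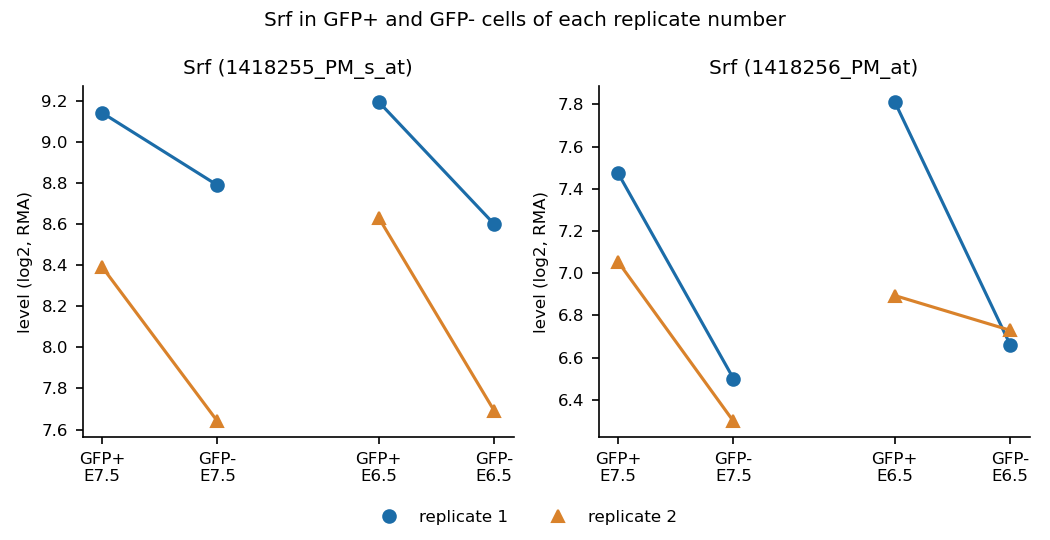
Log2 level of both Srf probe sets in GFP+ and GFP- cells, with a line joining the arrays of the same replicate number and stage and a vertical axis of its own for each probe set. The GFP+ value is the higher end of all 8 lines, by 0.35 to 0.94 on 1418255_PM_s_at and by 0.16 to 1.15 on 1418256_PM_at.

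SRF binds the CArG box, and the Srf promoter is known to hold such sites, so the 250 bases before the Srf start are shown with them in capitals. RefSeq promoter windows (GRCm38.p6, 250 bases before to 50 after a gene start) were at hand for 6 of the 8 genes, in 8 windows. The Srf stretch lies at chr17:46556163-46556412 on the minus strand, is printed 5′ to 3′, and starts from a gene start inside the widest annotated extent of the gene.
Srf: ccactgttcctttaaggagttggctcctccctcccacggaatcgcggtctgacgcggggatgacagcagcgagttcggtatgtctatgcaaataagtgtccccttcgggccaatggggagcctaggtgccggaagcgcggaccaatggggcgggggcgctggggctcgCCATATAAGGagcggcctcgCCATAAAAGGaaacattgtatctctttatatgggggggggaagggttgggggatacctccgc
The CArG boxes begin 82 and 62 bases before the start, as CCATATAAGG and CCATAAAAGG. The pattern of a CArG box is the same on both strands, and it occurred in 1.63% of 32851 promoter windows, and 0.0183% held 2 or more. The other 7 windows of the regulators held none, which says only that these letters are not in those windows. A match to a motif is a description of the letters, and binding was not measured.

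The partners and targets of SRF were read next. Of 9 listed cofactors 7 were tested and limma called 0 of 7 in each comparison, with 1 of 7 at an unadjusted p under 0.05 between stages in GFP+ cells and 0 of 7 otherwise. The LIM-only genes Csrp1 and Csrp2 had the largest stage differences, 1.25 and 0.72 in GFP+ cells and 0.85 and 0.83 in GFP- cells. Mrtfa and Mrtfb, myocardin-related coactivators, were at 0.16 and -0.09 between stages in GFP+ cells. Elk3, a ternary complex factor, was 0.86 higher in GFP+ than in GFP- cells at E7.5, and its difference at E6.5 was -0.43. The median fraction difference of the 7 cofactors was -0.415 at E6.5, with 2 of 7 positive. At E7.5 it was 0.06, with 4 of 7 positive.

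Of 26 listed targets of SRF and myocardin 21 were tested, and limma called 0 of 21 in each comparison. At an unadjusted p under 0.05 there were 3 of 21 between fractions at E6.5, 0 at E7.5, 2 between stages in GFP+ cells and 3 in GFP- cells. Their median fraction difference was 0.04 at both stages. Actc1, the cardiac alpha actin, was 3.10 higher at E7.5 in GFP+ cells (limma adjusted p 0.509) and 1.85 higher in GFP- cells, and Cnn2, a calponin, was 1.82 higher at E7.5 in GFP- cells. Between fractions at E6.5 the highest were Egr1, an immediate early gene, at 1.07, and Cnn2 at 0.96, and the lowest were Acta1 at -0.89 and Fosb at -0.72.

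Isl1 was above background on all 8 arrays on its probe set 1422720_PM_at and on 5 of 8 on 1450723_PM_at. The first read 5.40 and 5.10 in GFP+ cells and 6.21 and 5.46 in GFP- cells at E7.5, and 4.91 and 5.66 in GFP+ cells and 5.04 and 5.61 in GFP- cells at E6.5. At E7.5 both GFP- values lay above both GFP+ values, the lower of them narrowly, and at E6.5 the fractions overlapped. GFP+ minus GFP- was -0.59 at E7.5 (SE 0.42, interval -1.57 to 0.40), with -0.81 and -0.36 within the numbers, and -0.04 at E6.5. The stage difference was -0.04 in GFP+ cells and 0.51 (SE 0.42) in GFP- cells, made of 1.17 and -0.15.

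The second Isl1 probe set did not follow the first. It read 4.22 and 5.63 in GFP+ cells and 3.69 and 5.90 in GFP- cells at E7.5, and 3.74 and 4.76 in GFP+ cells and 3.58 and 4.82 in GFP- cells at E6.5. Every replicate 2 value exceeded every replicate 1 value, and the fraction difference at E7.5 was 0.13 (SE 0.85), opposite in sign to that of the first. ISL1 works with LIM domain binding proteins, and of a list of 11 such cofactors and MEF2 repressors 10 were tested. Limma called 0 of 10 in each comparison, with 2 of 10 at an unadjusted p under 0.05 between stages in GFP- cells and 0 of 10 otherwise. Lmo2, a LIM-only factor of blood and endothelial progenitors, was 2.47 higher at E7.5 in GFP- cells and 1.26 higher in GFP+ cells, while Ldb2 was at -0.65 and -0.67.

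Nkx2-5 was near background. Its probe set 1449566_PM_at read 3.70 and 4.85 in GFP+ cells and 3.67 and 4.42 in GFP- cells at E7.5, and 3.63 and 4.51 in GFP+ cells and 3.67 and 4.80 in GFP- cells at E6.5. The 4 replicate 1 arrays were all below the background level and the 4 replicate 2 arrays all above it, in both fractions and at both stages. The replicate 1 values spanned under 0.1 log2 unit. The fraction difference was -0.17 at E6.5 and 0.23 at E7.5, and the stage difference 0.21 in GFP+ and -0.19 in GFP- cells (SE 0.58 each).

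Mef2c was low and level. Its probe set 1424852_PM_at read 4.30 and 4.66 in GFP+ cells and 4.17 and 4.79 in GFP- cells at E7.5, and 4.04 and 4.81 in GFP+ cells and 4.15 and 4.74 in GFP- cells at E6.5. All 8 values were above the background level by a small margin, and replicate 2 was higher than replicate 1 in each group. The changes were -0.02 and 0.00 between fractions at E6.5 and E7.5, and 0.05 and 0.04 between stages in GFP+ and GFP- cells, with SE 0.41 each. The interval of the E7.5 fraction difference, -0.97 to 0.96, would still hold a change of close to 2-fold. The other Mef2c probe sets ran from 2.61 to 3.21 and from 2.29 to 3.62, below background on every array.

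Myocd was above background on 3 of 8 arrays on 1425978_PM_at. It read 3.57 and 3.82 in GFP+ cells and 3.59 and 5.32 in GFP- cells at E7.5, and 3.57 and 4.92 in GFP+ cells and 3.79 and 4.50 in GFP- cells at E6.5. All arrays above background were of replicate 2, and the only replicate 2 array below it was that of GFP+ cells at E7.5. GFP+ minus GFP- at E7.5 was -0.76 (SE 0.67), with -0.02 in replicate 1 and -1.50 in replicate 2. The other Myocd probe set stayed between 3.05 and 3.75.

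**Figure D5:**
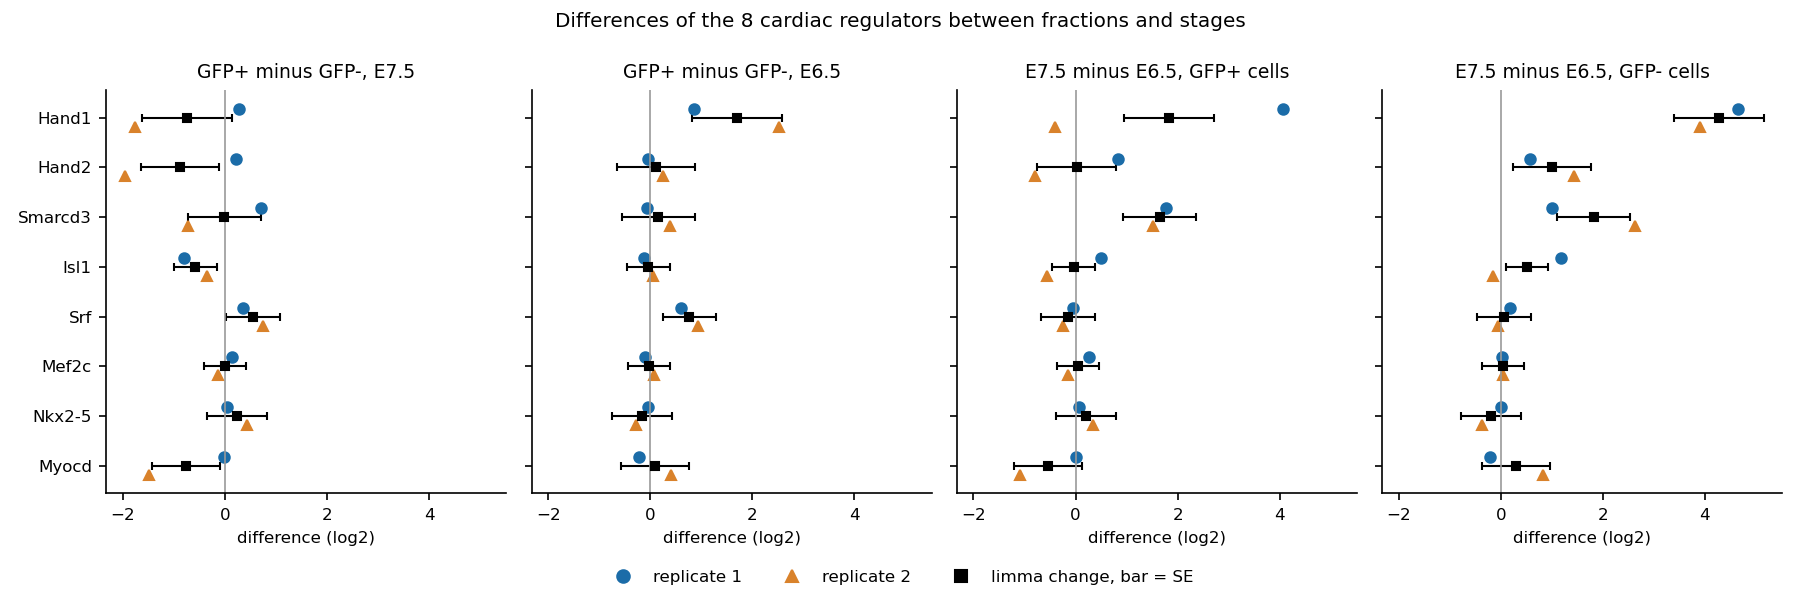
Log2 differences of the 8 regulators in the 4 comparisons, with the limma estimate as a square, its SE as a bar and the value within each replicate number as a coloured marker. Between E7.5 and E6.5 in GFP- cells Hand1 stands at 4.27 and Smarcd3 at 1.82, with both replicate markers above 0.

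The GFP- array of replicate 2 at E7.5 held the highest value of Hand2 (7.47), Smarcd3 (8.09) and Myocd (5.32) on the probe sets used. It also held that of the second Hand1 (8.83) and second Isl1 (5.90) probe sets. Every other member probe set was highest on a different array. The Isl1 probe set used peaked on the GFP- array of replicate 1 at E7.5 (6.21), as did the other Myocd probe set (3.75, below background). The second Hand2 probe set peaked on the GFP+ array of replicate 1 at E7.5 (5.72). On the GFP- array of replicate 2 at E7.5 the mean level of 14 visceral endoderm markers was 6.04. At that stage it was 4.70 on the GFP- array of replicate 1, and 4.97 and 4.84 on the GFP+ arrays. At E6.5 the endoderm mean was 4.18 and 4.59 on the GFP+ arrays and 5.93 and 7.74 on the GFP- arrays. On the E6.5 GFP- array of replicate 2, Smarcd3 read 5.46, Hand2 6.03 and Myocd 4.50. The extraembryonic mesoderm mean was at its highest of the 8 arrays, 7.22, on the GFP- array of replicate 2 at E7.5. That peak was not particular to this tissue. The neural and surface ectoderm mean was highest there too. So were those of the HAND partners and inhibitors, the LIM cofactors and MEF2 repressors, and the other heart transcription factors described below. The means of the remaining lists, among them the blood and endothelial and BAF lists, were highest on other arrays. On the GFP- array of replicate 2 at E7.5 all 14 endoderm markers lay above background, and 10 of 14 on the E7.5 GFP- array of replicate 1. Limma called 0 of these 14 in any comparison. At an unadjusted limma p under 0.05 there were 10 of 14 between fractions at E6.5, against 5.73% of all genes. Between stages in GFP- cells there were 5 of 14, against 6.48%. The part of endoderm or extraembryonic mesoderm cells in the values of these regulators was not tested.

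Other transcription factors of the early heart set these levels in context. Of 30 on the list 22 were tested. Between fractions at E6.5 limma called 2 of 22 higher in GFP+ cells, where 0.0769% of all genes were called in either direction. They were Meis2 (3.61, limma adjusted p 0.0312) and Hoxb1 (3.33, adjusted p 0.0312), both homeobox genes of early mesoderm, while Gata6 was at 3.63 without passing. At E7.5 limma called 0 of 22, with 0 of 22 at an unadjusted p under 0.05, against 2.41% of all genes. At that unadjusted level there were 8 of 22 between fractions at E6.5, against 5.73% of all genes. Between stages there were 6 of 22 in GFP+ cells, against 3.85%, and 7 of 22 in GFP- cells, against 6.48%. For the interaction there were 4 of 22, against 2.71%. Between stages, Foxc2, a forkhead factor of mesoderm, rose in GFP+ cells (5.45, adjusted p 0.0409), and Hoxb1 (6.11, adjusted p 0.00116), Foxc2 (5.10, adjusted p 0.016) and Meis2 (4.05, adjusted p 0.016) rose in GFP- cells. The median of the 22 was 0.25 and 0.15 between fractions at E6.5 and E7.5, and 0.20 and 0.72 between stages in GFP+ and GFP- cells. Hand1, at 4.27 in GFP- cells, therefore had an estimate in the range of these called genes but an SE of 0.88 with it.

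Of 20 listed signals and receptors of the heart fields 16 were tested. Aplnr, the apelin receptor, was higher in GFP+ than in GFP- cells at E6.5 (5.11, limma adjusted p 0.00553) and rose between stages in GFP- cells (6.23, adjusted p 0.00116). Aldh1a2, which makes retinoic acid, rose between stages in GFP+ cells (6.28, adjusted p 0.0409) and GFP- cells (5.68, adjusted p 0.0212). No other gene of the list passed limma's test. At an unadjusted limma p under 0.05 there were 9 of 16 between fractions at E6.5, against 5.73% of all genes. At E7.5 there were 2 of 16, against 2.41%. Between stages there were 6 of 16 in GFP+ cells, against 3.85%, and 10 of 16 in GFP- cells, against 6.48%. The interaction had 7 of 16, against 2.71%. Of 18 listed sarcomere and heart muscle genes 12 were tested and limma called 0 of 12 in each comparison, with 4 of 12 at an unadjusted p under 0.05 between stages in GFP+ cells, 2 in GFP- cells, and 1 between fractions at E7.5. Tnni1 (3.74) and Tnnc1 (3.54), which encode troponins, had the largest differences between stages in GFP+ cells. Between fractions at E7.5 Tnnc1 was at 3.35, with 2.28 and 4.41 within the numbers and a limma adjusted p of 1.0, and Tnni1 was at 1.13. Myl7, an atrial myosin light chain, was 2.44 higher at E7.5 in GFP- cells and 2.46 higher in GFP+ cells.

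For each regulator the genes with the most similar pattern were found by Pearson correlation over the 8 arrays, after subtracting the mean of each replicate number, as a description among 11706 genes that share these arrays. For Hand1 they were Foxf1 (r = 0.97), Il6st (0.97) and Dhx35 (0.96), and for Hand2 Acvrl1 (1.00), Oxct2a (0.99) and Lysmd2 (0.98). For Smarcd3 they were Alx1 (0.98), Airn (0.98) and Phf20l1 (0.98), and for Srf Pias2 (0.99), Rab34 (0.97) and Papolg (0.97). For Isl1 they were Zgpat (0.99), Syt7 (0.96) and BC028528 (0.96). For Mef2c they were Nudt17 (0.96), Gh (0.95) and Mamdc4 (0.94), for Nkx2-5 Ilrun (0.98), Ndufs3 (0.97) and Bdh2 (0.96), and for Myocd Gas5 (0.99), Fgf4 (0.97) and Chrm3 (0.97). With 8 points and so many genes, values this near 1 arise for regulators close to background as well as for Hand1, and no other member of the set of 8 was among any of these top genes.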

How the data were processed

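The deposited values are log2 expression levels, which the authors computed for each probe set by RMA, per the submitters' processing notes. For RMA no version, and for the annotation no build, is given in the sources used here. The table held 45141 probe sets. Names came from the platform annotation, and probe sets with several symbols (551) or none (15588, controls apart) were not named. Probe sets entered if 2 or more of the 8 arrays exceeded the median of all values (4.38), and each of the 11706 genes was represented by the remaining probe set of highest mean. The functions lmFit and eBayes of limma 3.58.1 (R 4.3.3) were run on the 8 arrays together, 1 mean for each group, without a block, leaving 4 residual and 3.21 prior degrees of freedom. P-values are two-sided, with Benjamini-Hochberg adjustment over all genes. The fit was also run on simulated data with independent errors and no replicate effect. That run does not cover the offset between the replicate numbers. Probe sets other than the one used for a gene were fitted separately, adjusted over 18584 named probe sets.

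The members and gene lists were chosen with earlier results of these data known. Named genes are the 8 members, Mesp1, list genes past the threshold or among the 2 largest and 2 smallest changes of a comparison described (Smarcd1 and Smarcd2, outside these between stages, were named after their values were seen), and the 3 genes most like each member. Labels do not say whether arrays came from separate litters, so the spread may be partly technical. Precision is limited by the number of arrays and by amplification of 50 cells over 25 PCR cycles. Alternatives changed the block, filter, gene summary, normalization, arrays fitted and moderation.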

Additional observations from a re-analysis of the deposited data

Results flagged for a closer look

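Nkx2-5 on 1449566_PM_at was picked out because its fraction difference had opposite signs at the 2 stages in both replicate numbers: GFP+ minus GFP- was 0.03 and 0.43 at E7.5, against -0.04 and -0.29 at E6.5. The difference between the stages was 0.395 on the log2 scale. The split of signs itself was not tested; limma's interaction for the same probe set was 0.395 with an SE of 0.82 and an adjusted p of 0.9999. The 4 replicate 1 arrays lay below the olfactory receptor background.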

How the results depend on the processing

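The count of regulators past the threshold was 0 of 8 in all 5 comparisons under each alternative that gave a value. Over 40 changes (8 genes by 5 comparisons) 647 alternative values were computed, of which 577 kept their sign and 70 turned it, all of them for changes that no fit called; the cause was not tested. The replicate numbers were not taken as pairing, since the labels state none and there are only 2 numbers, although deviations of same-numbered arrays correlated across genes (r of 0.401 to 0.532). With the replicate number as a block the lowest adjusted p was 0.179, for Hand1 and for Smarcd3 between stages in GFP- cells, 0.281 for Srf between fractions at E6.5, and no member was called. At an unadjusted p under 0.05 the blocked fit had Srf between fractions at E6.5 (SE 0.21, p 0.01228) and at E7.5 (SE 0.21, p 0.04244), where limma without the block had no member, and Smarcd3 between stages in GFP+ cells (SE 0.41, p 0.008221), beside Hand1 and Smarcd3 in GFP- cells. That was 1, 1, 1 and 2 of 8, and 0 of 8 for the interaction, against 10.8%, 6.45%, 8.69%, 12.2% and 6.5% of all genes. Among all genes the block gave 30 calls in place of 9 between fractions at E6.5 and 39 in place of 11 between stages in GFP- cells. Myocd had no value under the stricter filter. Signs turned on the other probe set for Hand2 (-0.013) and Isl1 (0.053) between fractions at E6.5, for Isl1 at E7.5 (0.13), for Isl1 between stages in GFP+ cells (0.67), for Srf in GFP- cells (-0.30), and for the interaction of Isl1 (0.080) and Srf (0.21). They turned on the mean of all probe sets for Isl1 at E6.5 (0.0073) and in GFP+ cells (0.32) and for Srf in GFP- cells (-0.11), and under joint quantile normalization for Mef2c at E7.5 (0.0094) and Hand2 in GFP+ cells (-0.042). Leaving out each array in turn, which by its construction leaves the replicate offset unbalanced, gave these ranges where the sign turned. Between fractions at E6.5, Hand2 ran from -0.62 to 0.83, Mef2c from -0.40 to 0.37, Smarcd3 from -0.32 to 0.64, Isl1 from -0.41 to 0.34, Nkx2-5 from -0.73 to 0.40 and Myocd from -0.58 to 0.77. At E7.5, Hand1 ran from -1.94 to 0.46, Hand2 from -1.88 to 0.12, Mef2c from -0.32 to 0.31, Smarcd3 from -1.09 to 1.06, Nkx2-5 from -0.34 to 0.80, Myocd from -1.63 to 0.11 and Srf from -0.023 to 1.13. Between stages in GFP+ cells, Hand2 ran from -0.71 to 0.75, Mef2c from -0.33 to 0.44, Isl1 from -0.41 to 0.34, Nkx2-5 from -0.37 to 0.78, Myocd from -1.22 to 0.13 and Srf from -0.52 to 0.23. In GFP- cells, Mef2c ran from -0.27 to 0.35, Nkx2-5 from -0.75 to 0.38, Myocd from -0.56 to 1.17 and Srf from -0.51 to 0.64. For the interaction, Hand2 ran from -1.99 to 0.013, Mef2c from -0.37 to 0.40, Smarcd3 from -1.24 to 0.90, Nkx2-5 from -0.18 to 0.97, Myocd from -1.72 to 0.016 and Srf from -0.79 to 0.36. Hand1 between stages in GFP- cells stayed between 4.08 and 4.46 when arrays were left out, and Smarcd3 between 1.17 and 2.13 in GFP+ cells and between 0.75 and 2.89 in GFP- cells.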
